A study of Mus musculus with 7 samples.

Results

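The mouse genes named Spata, Tex, Tdrd, Tssk, Prm or Tnp were examined in medullary thymic epithelial cells (mTECs). Most were named for their transcripts or proteins in testis. Every protein-coding gene whose symbol starts with one of these names followed by a digit was taken, which gave 83 of the 21963 protein-coding genes and of the 55536 genes of the deposited table. The set holds 36 Tex, 29 Spata, 7 Tdrd, 6 Tssk, 3 Prm and 2 Tnp genes, with 82 distinct symbols because Spata22 is listed under 2 gene identifiers. Another 2 genes carry such a symbol but are not annotated as protein coding and were left out. The members lie on 19 chromosomes, and 8 of them are X-linked.

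RNA was measured by SMART-seq, a full-length cDNA method suited to few cells, in EPCAM-positive mTECs sorted fresh from mouse thymus. The 3 Cre-positive libraries (45, 76 and 80) are Cre(+) Ikzf1fl/fl Pou2f3-/-, and the 4 Cre-negative libraries (46, 48, 75 and 77) are Cre(-) Ikzf1fl/fl Pou2f3-/-. All 7 therefore carry floxed Ikzf1, which encodes the zinc-finger transcription factor Ikaros, on both alleles and lack both functional alleles of Pou2f3, the regulator of tuft cells. The comparison asks what Cre deletion of Ikaros does to gene expression in mTECs when tuft cells are missing. No source used here gives the Cre driver, the floxed exon or the age of the mice. Whether every library came from its own animal is unstated in the labels, and p-values then measure only the spread between these samples, which may be technical.

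Medullary thymic epithelial cells transcribe many genes of peripheral tissues, testis included, partly under the regulator Aire, and present them to developing T cells. Such transcription is patchy: a given mTEC reads only some of these genes. In testis, the transition proteins Tnp1 and Tnp2 replace most histones of elongating spermatids and are then replaced by the protamines Prm1 and Prm2, which pack sperm DNA. Tudor-domain (Tdrd) proteins build germ granules in which PIWI-interacting RNAs (piRNAs) silence retrotransposons, and testis-specific serine kinases (Tssk) act in late spermatids. Spata and Tex are naming groups for genes associated with spermatogenesis or expressed in testis, not families of related proteins.

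The shared name does not make every member testis-restricted. By textbook knowledge, 15 of the 83 are transcribed in many tissues (Tex2, Tex10, Tex30, Tex261, Tex264, Spata2, Spata2l, Spata5, Spata6, Spata7, Spata13, Spata20, Spata24, Tdrd3 and Tdrd7), and they are given apart from the other 68. All 15 passed the minimum for testing, a mean of 5 normalized counts over the 7 libraries, against 39 of the other 68. Among tested members, the median of the mean normalized counts was 215 for the 15 broadly transcribed genes and 13.2 for the other 39.

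The start regions of 4 members whose levels differed between the genotypes are shown, chosen after their values were seen, since they place genes restricted to spermatids beside a broadly transcribed gene. RefSeq windows on GRCm38.p6, from 250 bases before to 50 bases after the start, matched 71 of the 82 symbols. Each window below runs 5′ to 3′ along the gene's own strand. Capitals mark letters searched for on both strands: TGACNTCA, related to the cyclic AMP response element that the spermatid factor Crem binds, TATAA, and GGGAA, the core that Ikaros proteins bind. The windows are chr16:10796774-10797073 on the minus strand for Prm1, chr16:10788606-10788905 on the minus strand for Tnp2, chr9:27396557-27396856 on the plus strand for Spata19 and chr6:83775763-83776062 on the minus strand for Tex261.
Prm1: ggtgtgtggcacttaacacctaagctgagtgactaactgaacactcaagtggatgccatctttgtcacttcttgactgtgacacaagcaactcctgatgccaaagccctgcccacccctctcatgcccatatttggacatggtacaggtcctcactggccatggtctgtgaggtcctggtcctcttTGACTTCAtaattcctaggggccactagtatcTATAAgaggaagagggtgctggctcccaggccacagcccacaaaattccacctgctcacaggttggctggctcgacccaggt
Tnp2: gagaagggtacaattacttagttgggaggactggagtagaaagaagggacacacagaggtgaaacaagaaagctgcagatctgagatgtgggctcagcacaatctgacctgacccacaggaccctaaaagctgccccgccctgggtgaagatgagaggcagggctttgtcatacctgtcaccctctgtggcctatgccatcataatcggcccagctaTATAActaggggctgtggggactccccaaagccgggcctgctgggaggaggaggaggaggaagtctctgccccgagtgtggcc
Spata19: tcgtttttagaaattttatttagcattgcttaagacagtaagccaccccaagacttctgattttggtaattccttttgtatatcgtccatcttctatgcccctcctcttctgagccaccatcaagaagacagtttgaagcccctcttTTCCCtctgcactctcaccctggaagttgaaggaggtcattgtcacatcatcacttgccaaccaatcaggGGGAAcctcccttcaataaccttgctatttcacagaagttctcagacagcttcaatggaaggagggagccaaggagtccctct
Tex261: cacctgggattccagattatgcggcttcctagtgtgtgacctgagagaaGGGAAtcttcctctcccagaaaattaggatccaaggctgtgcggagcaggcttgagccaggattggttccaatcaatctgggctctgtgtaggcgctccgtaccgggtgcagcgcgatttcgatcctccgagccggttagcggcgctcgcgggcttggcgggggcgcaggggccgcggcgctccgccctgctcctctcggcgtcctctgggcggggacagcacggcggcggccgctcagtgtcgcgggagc
The Prm1 window holds TGACTTCA with its first base 64 bases before the start and TATAA 32 bases before it. The Tnp2 window holds TATAA 33 bases before the start and neither of the other motifs. The Spata19 window holds GGGAA 33 bases before the start and again, read on the other strand as TTCCC, 103 bases before it. The Tex261 window holds GGGAA 201 bases before the start.

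Over the set, TGACNTCA was in 17 of the 71 member windows (23.9%) and in 8.83% of all 32851 windows. Among the 17 were those of Prm1, Prm3, Tnp1, Tssk1, Tssk2 and Tex48, and of the broadly transcribed Spata7 and Spata20. The palindrome TGACGTCA was in 1 member window (1.41%) and in 1.79% of all windows. GGGAA was in 42 member windows (59.2%) and in 62.7% of all windows, and TATAA in 12 (16.9%) and in 24.9%. The broadly transcribed members had more CpG dinucleotides than the others, with a median of 22 in 13 windows against 4 in 58 windows, where all windows had a median of 7. The Tex261 window holds 29 CpG, while those of Spata19, Prm1 and Tnp2 hold 2, 1 and 4. Each member symbol gave only the window nearest its annotated start, while all windows were counted without such a choice. A match describes these letters only, and no binding was measured here.

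Depth allowed low genes to be counted but not measured finely. Whole reads were recovered from the deposited normalized counts, with totals of 11383465 to 11623062 reads in the Cre-positive libraries and 9815958 to 12599078 in the Cre-negative libraries. Genes with at least 10 reads numbered 17169 to 18014 in Cre-positive and 19417 to 20467 in Cre-negative libraries. Ikzf1 itself had 1310.3, 1828.6 and 1677.5 normalized counts in the Cre-positive libraries, against 1118.7, 1149.5, 1146.8 and 1219.0 in the Cre-negative libraries (log2 fold change 0.46 ± 0.17 SE, limma adjusted p = 0.0916). Reads from exons outside the deleted part would still be counted, so this level does not check the labels. Reads of 4 Y-linked genes came almost wholly from Cre-negative 48, with a sum of 3938.0 normalized counts, against 0 in each Cre-positive library and at most 1.0 in the other Cre-negative libraries.

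Fewer members were read in Cre-positive mTECs. At least 10 reads were found for 28, 32 and 29 of the 83 members in Cre-positive 45, 76 and 80, against 45, 39, 42 and 42 in Cre-negative 46, 48, 75 and 77. The groups did not overlap, with means of 29.7 ± 2.08 members in Cre-positive (SD, n = 3) and 42.0 ± 2.45 in Cre-negative libraries (SD, n = 4). The same direction held for protein-coding genes as a whole, of which 64% to 66.4% had 10 reads in Cre-positive and 72.3% to 74% in Cre-negative libraries, against 33.7% to 38.6% and 47% to 54.2% of the members.

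The difference was seen among the members outside the broadly transcribed list, which were mostly of lower level. Of those 68, 14, 19 and 16 had at least 10 reads in the Cre-positive libraries and 31, 26, 27 and 29 in the Cre-negative libraries. Their summed level was 881.8, 943.8 and 848.7 normalized counts in Cre-positive libraries, against 2058.3, 1940.2, 2328.5 and 2007.3 in Cre-negative libraries. Every Cre-positive sum was thus below every Cre-negative sum, at 891 ± 48.3 and 2084 ± 170.3 (SD, n = 3 and 4). The sums of the remaining 62 genes, without the 6 called lower below, did not overlap either, at 591 ± 31 normalized counts in Cre-positive and 979 ± 123.6 in Cre-negative libraries. The 15 broadly transcribed genes gave 13 or 14 genes with 10 reads in Cre-positive and 13 to 15 in Cre-negative libraries, and their sums overlapped, at 4186 ± 164 and 3951 ± 414 normalized counts. In each library 11 or 12 of these 15 had 100 reads or more, so a cut at 10 reads could hardly part the groups. The lists thus differ in level as well as in breadth of transcription, and these counts and sums were not compared at like level. In RNA from many cells, fewer cells of a type and less RNA per cell cannot be told apart.

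**Figure D1:**
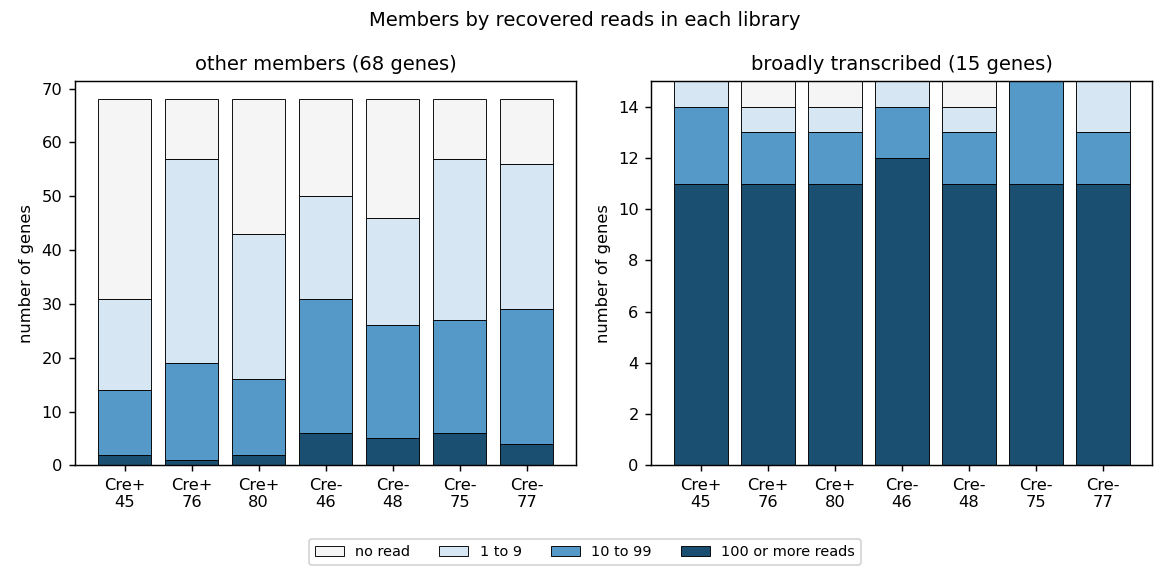
Number of members (vertical axis) in each class of recovered reads, as stacked bars for each library, Cre-positive left of Cre-negative, with the 68 members outside the broadly transcribed list and the 15 broadly transcribed members in separate panels. Between 14 and 19 of the 68 reach 10 reads in Cre-positive libraries and between 26 and 31 in Cre-negative libraries, while 13 to 15 of the 15 do so in every library.

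Gene by gene, 54 members were tested and 8 were called at an adjusted p under 0.05. The 7 called lower in Cre-positive mTECs were Spata19, Tex48, Tex21, Prm1, Tex14, Tdrd7 and Tnp2, which is 13% of those tested, where 9.11% of all 22878 genes tested were called lower. Tex261 was the 1 member called higher (1.85%), where 4.66% of all genes were. The share called is therefore near that of genes at large. The median log2 fold change was -0.87 over the 54 members and -0.10 over all genes tested. Below 0 were 41 members, with 13 above, and 12512 of all 22878 genes tested. These medians compare unlike levels, since low genes leaned lower over the whole table. By level, the median over all genes was -0.64 at a mean of 5 to 20, -0.28 at 20 to 100 and 0.08 from 100 up. The members' medians in these ranges were -1.13, -0.46 and -0.01. The median was -1.50 over the 39 tested members outside the broadly transcribed list, of which 6 were called lower (15.4%) and 0 higher by limma. This -1.50 is not matched by level either. The minimum for testing also weighs on these medians, since most low members passed it through their Cre-negative counts, as given below. Over the members, the median was -0.51 without a filter and -0.30 at a minimum mean of 20. The medians and the 41 below 0 therefore support nothing by themselves. At an unadjusted p under 0.05, 12 of these 39 were lower and 1 was higher, where 17.3% and 11.1% of all genes tested were. The median was 0.01 over the 15 broadly transcribed members, of which Tdrd7 was called lower and Tex261 higher.

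Of 26 members with a mean of 5 to 20 normalized counts, 24 had a fold change below 0, as did 66.5% of all genes at that level, and 2 were called lower (7.69%), where 5.36% of all genes at that level were. Of these 26, 15 averaged under 5 normalized counts in Cre-positive libraries and 1 in Cre-negative libraries, so most passed the minimum through their Cre-negative counts and the 24 supports nothing by itself. Of 13 with a mean of 20 to 100, 1 was called lower (7.69%), where 13.9% of all genes were. Of 15 with a mean of at least 100, 4 were called lower (26.7%), where 8.5% of all genes were, and 1 higher (6.67%), where 9.04% were. In the lower ranges 0 members were called higher by limma, where 0.345% and 1.99% of all genes were, and 0 and 1 were above 0 at an unadjusted p under 0.05. Members whose Cre-positive libraries all lay below the Cre-negative ones numbered 10 of 54, where 14.5% of all genes tested did so, and 3 lay wholly above, where 10.8% did. Scaling to library totals in place of the authors' size factors moved the median of all genes to -0.29 and that of the members to -0.99, with 8 members lower and 1 higher, where 11.5% and 2.55% of all genes were called. On recovered reads, edgeR called 7 members lower and 1 higher, where 6.87% and 4.28% of genes were, and DESeq2 called 8 and 1, where 11.4% and 6.31% were.

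**Figure D2:**
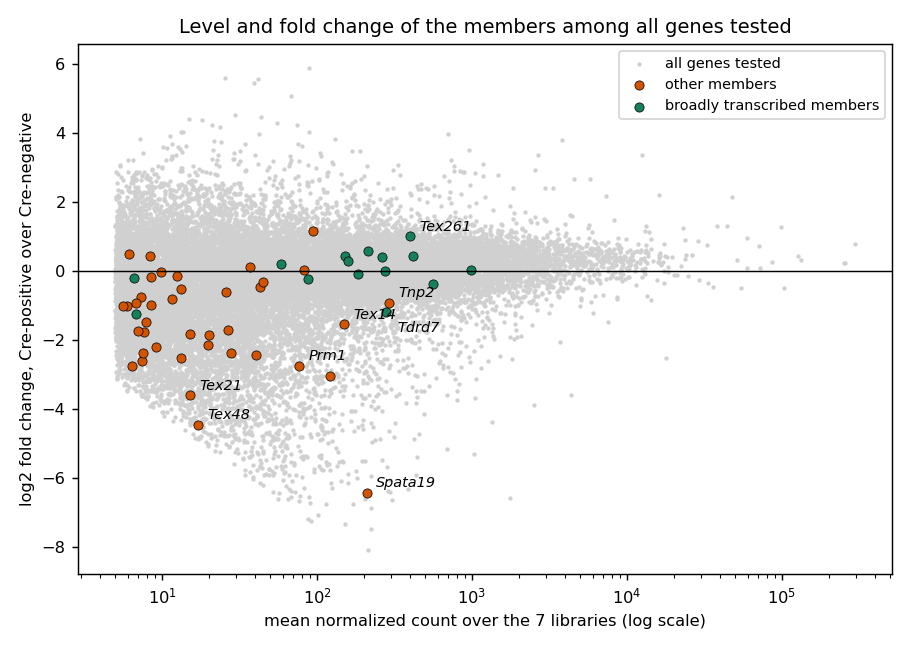
Log2 fold change (vertical axis, Cre-positive over Cre-negative) against mean normalized count over the 7 libraries (horizontal log axis), for the 54 tested members over all 22878 genes tested. Of the 26 members with means from 5 to 20, 24 lie below 0, as do 66.5% of all genes at that level.

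**Figure D3:**
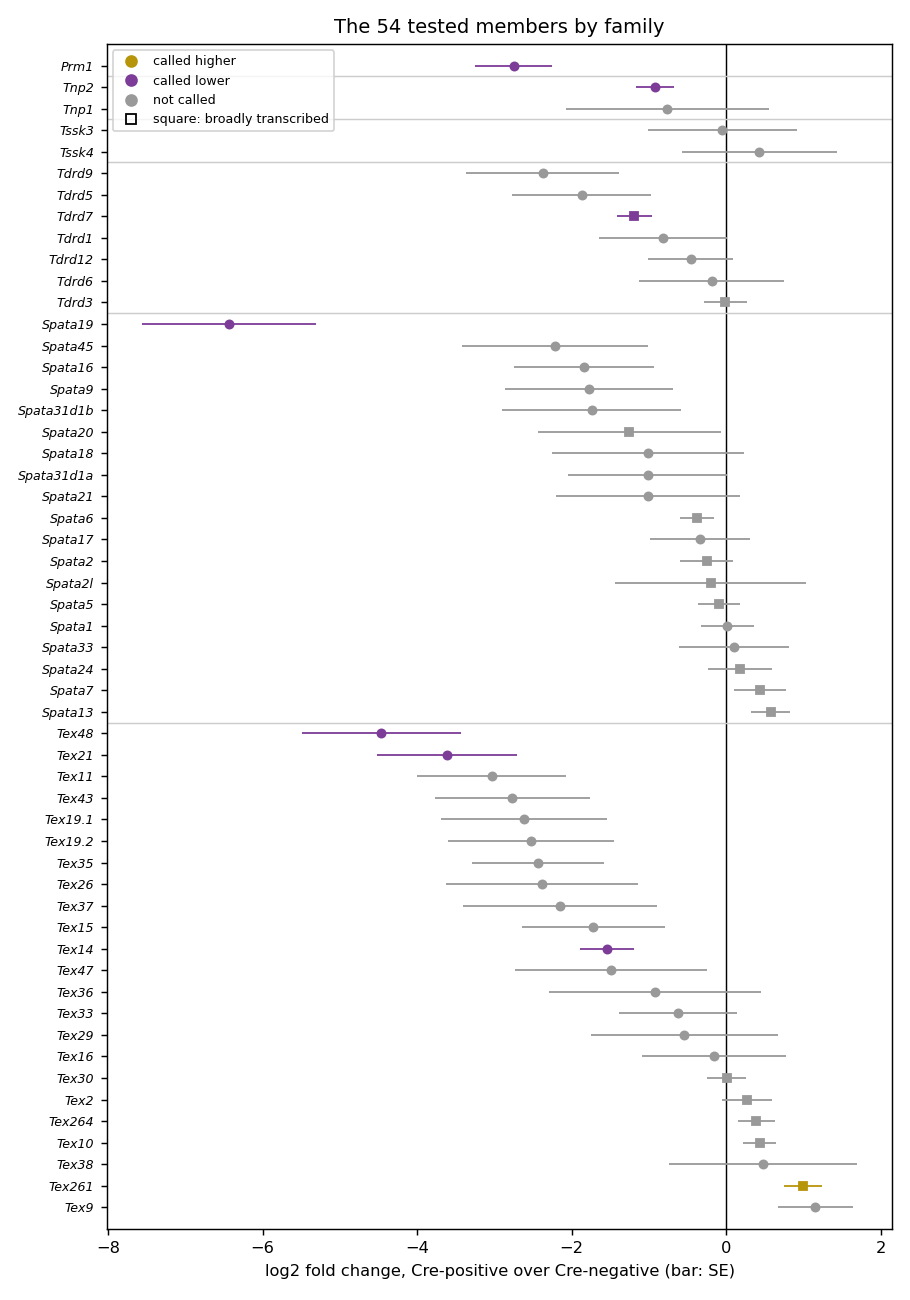
Log2 fold change with its SE (horizontal axis, Cre-positive over Cre-negative) of each of the 54 tested members, grouped by name. All 7 Tdrd genes lie below 0, as do 12512 of all 22878 genes tested, and Tdrd3 and Tdrd6 lay above it under some alternatives. Of the 54 members, 46 were not called.

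DNA packaging genes of spermatids were read at very unequal levels. Of those that could be tested, Prm1 and Tnp2 were called lower and Tnp1 was not called. Prm1 (ENSMUSG00000022501, chr16:10796326-10796886 on GRCm38), a protamine, had 32.4, 10.0 and 13.5 normalized counts in Cre-positive mTECs, against 171.8, 121.2, 94.6 and 93.0 in Cre-negative mTECs. The groups were far apart, and Prm1 fell by 2.75 ± 0.50 on the log2 scale (SE, limma adjusted p = 0.00336). It was called under every alternative tried. Tnp2 (ENSMUSG00000043050, chr16:10787936-10788655), a transition protein, had 223.6, 175.2 and 173.4 normalized counts in Cre-positive and 373.8, 294.5, 471.1 and 325.7 in Cre-negative mTECs. It fell by 0.93 ± 0.25 on the log2 scale (adjusted p = 0.0265), with no overlap between groups. The Tnp2 call was lost without Cre-positive 76 (adjusted p = 0.0758), Cre-positive 80 (0.0685), Cre-negative 46 (0.0708) or Cre-negative 75 (0.0660).

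Their partners in chromatin packaging were read at low levels. Tnp1, the other transition protein, had 2.1, 7.0 and 0 normalized counts in Cre-positive libraries and 8.4, 32.5, 0.9 and 0 in Cre-negative libraries (log2 fold change -0.76 ± 1.31 SE, adjusted p = 0.752). Most of its Cre-negative counts came from library 48. Prm2, the other sperm protamine, was too low to be tested, with 0, 2.0 and 0 normalized counts in Cre-positive and 12.6, 4.9, 0.9 and 6.2 in Cre-negative libraries. Prm3 did not exceed 3.1 in any library. Per kilobase of exon, Tnp2 averaged 344 normalized counts in Cre-positive and 661 in Cre-negative libraries, above the 32.6 and 210 of Prm1 in the same groups.

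The Prm1, Prm2, Prm3 and Tnp2 genes sit side by side within 8.951 kb of chromosome 16, and the genes around them were looked at as well. Socs1, which encodes an inhibitor of cytokine signalling and lies beside Tnp2, had 561.1, 525.7 and 909.3 normalized counts in Cre-positive and 453.4, 528.9, 584.7 and 665.8 in Cre-negative libraries (log2 fold change 0.22 ± 0.23 SE, adjusted p = 0.580). Within 60 kb on either side, Clec16a (0.60 ± 0.25, adjusted p = 0.133) and Rmi2 (1.17 ± 0.77, adjusted p = 0.352) had fold changes above 0 and were not called. Prm1 and Tnp2 were thus the only called genes of this window among the 5 that could be tested. Prm2 and Prm3 lie between them and were too low to be tested, so no extent along the chromosome is shown.

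**Figure D4:**
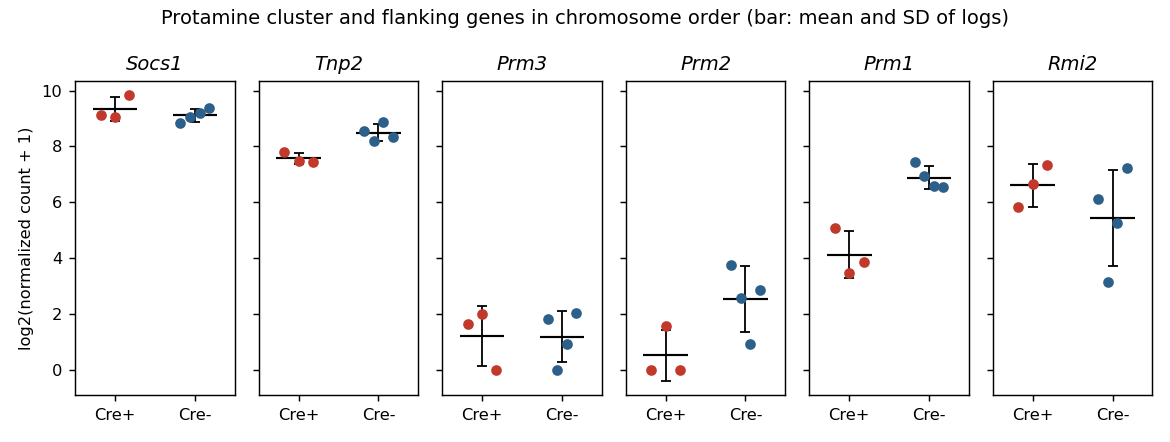
Log2(normalized count + 1) in each library (vertical axis) for the protamine cluster and its flanking genes in chromosome order, one panel a gene, Cre-positive left of Cre-negative; bars give the mean and SD of the logs. Cre-positive points lie below all Cre-negative points for Prm1 and Tnp2, and the groups overlap for Socs1.

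Of the spermatid kinases, Tssk3 and Tssk4 passed the minimum and neither was called. Tssk3 had 6.3, 4.0 and 14.5 normalized counts in Cre-positive and 1.7, 3.9, 16.2 and 22.7 in Cre-negative libraries (log2 fold change -0.05 ± 0.97 SE, adjusted p = 0.982). Tssk4 had 13.6, 20 and 1.0 in Cre-positive and 3.4, 10.8, 2.7 and 7.2 in Cre-negative libraries (0.43 ± 1.0, adjusted p = 0.823). The SEs show how little either value fixes. Tssk1, Tssk2, Tssk5 and Tssk6 had at most 7.0 normalized counts in any library.

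All 7 Tudor-domain genes were tested, and all had a fold change below 0, as did 12512 of all 22878 genes tested. Tdrd3 and Tdrd6 lay above 0 under some alternatives. Tdrd7 alone was called (14.3% of the 7), where 9.11% of all genes were called lower. Tdrd7 (ENSMUSG00000035517, chr4:45965334-46034761), a germ-granule protein that is also needed in the lens, had 154.7, 182.3 and 146.4 normalized counts in Cre-positive mTECs, against 372.1, 323.1, 410.8 and 368.1 in Cre-negative mTECs. Its groups lay well apart, with a fall of 1.19 ± 0.23 on the log2 scale (SE, adjusted p = 0.0048), and it was called under every alternative tried.

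The other Tdrd genes had wide or overlapping values. Tdrd9, an RNA helicase of the piRNA pathway, had 0, 12.0 and 29.1 normalized counts in Cre-positive and 46.9, 33.5, 52.2 and 22.7 in Cre-negative libraries (-2.38 ± 0.99, adjusted p = 0.135). The Tdrd9 value depended on single libraries, at -3.40 (adjusted p = 0.0488) without Cre-positive 80 and -0.94 (adjusted p = 0.413) without Cre-positive 45, and edgeR and DESeq2 gave -1.47 and -1.50 (adjusted p = 0.377 and 0.288). Tdrd5, a germ-granule protein, had 1.0, 27.0 and 5.2 in Cre-positive and 12.6, 41.4, 25.2 and 27.9 in Cre-negative libraries (-1.87 ± 0.90, adjusted p = 0.194). The groups overlapped through 1 Cre-positive library in each gene, 80 for Tdrd9 and 76 for Tdrd5. Tdrd1, a scaffold of the granule, had 3.1, 17.0 and 5.2 normalized counts in Cre-positive and 11.7, 24.6, 6.3 and 13.4 in Cre-negative libraries (-0.82, adjusted p = 0.564). Tdrd12, a helicase-related piRNA factor, had 70.0, 18 and 27.0 in Cre-positive and 32.7, 51.2, 45.9 and 53.8 in Cre-negative libraries (-0.46, adjusted p = 0.632). The groups overlapped in both. Tdrd6, of the spermatid chromatoid body, had 2.1, 8.0 and 11.4 in Cre-positive and 23.5, 3.0, 7.2 and 4.1 in Cre-negative libraries (-0.19, adjusted p = 0.923). Tdrd3, a methylarginine reader of many tissues, had 239.3, 239.3 and 336.3 in Cre-positive and 362.9, 309.3, 181.1 and 262.6 in Cre-negative libraries (-0.01 ± 0.28, adjusted p = 0.986).

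Of 19 tested Spata genes, 1 was called lower (5.26%) and 0 higher, where 9.11% and 4.66% of all genes were. That 1 gene had the most negative fold change of all members. Spata19 (ENSMUSG00000031991, chr9:27396800-27401785), a protein of sperm mitochondria, was at 0 in Cre-positive 45 and 80 and at 64.1 normalized counts in Cre-positive 76, against 406.4, 383.2, 337.8 and 276.0 in Cre-negative libraries. Thus 1 Cre-positive library held all of its reads in that group, while all 4 Cre-negative libraries were high. The group means were 21.4 ± 37.0 and 350.9 ± 57.5 (SD, n = 3 and 4), and the log2 fold change was -6.44 ± 1.12 (SE, adjusted p = 0.0027), or -8.44 without Cre-positive 76. The call held with edgeR on recovered reads (-3.98, adjusted p = 0.0301) and not with DESeq2 (-4.03, adjusted p = 0.137). The Spata genes as a group had a median log2 fold change of -0.38, which is not matched by level.

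Spata6, which joins sperm head and tail, was the highest Spata gene and was not called, with 570.5, 444.6 and 412.1 normalized counts in Cre-positive and 551.4, 820.5, 550.4 and 563.5 in Cre-negative libraries (-0.38 ± 0.22, adjusted p = 0.285). The 5 Spata31 genes on chromosome 13 are close copies whose reads may be divided between them, and neither of the 2 that were tested was called. Exons of 18 members overlap those of another gene, 6 on the same strand and 13 on the other; no source used here says whether counting used strand. None of the 8 called members is among these 18.

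Of 23 tested Tex genes, 3 were called lower (13%) and 1 higher (4.35%), where 9.11% and 4.66% of all genes were. Their median log2 fold change was -1.50, with the same limits of level and of the minimum for testing. Tex14 (ENSMUSG00000010342, chr11:87405065-87555823), needed for the bridges that join dividing germ cells, had 69.0, 78.1 and 59.2 normalized counts in Cre-positive and 166.8, 267.9, 280.2 and 130.3 in Cre-negative mTECs. It fell by 1.54 ± 0.35 on the log2 scale (SE, adjusted p = 0.0112), without overlap, and missed the threshold with a term for Y-linked level (adjusted p = 0.0542). The other pair of lower Tex genes were close to 0 in Cre-positive mTECs.

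Tex48 (ENSMUSG00000058935, chr4:63607089-63622428) was unread in all 3 Cre-positive libraries and had 39.4, 3.0, 28.8 and 48.6 normalized counts in Cre-negative libraries (log2 fold change -4.47 ± 1.03 SE, adjusted p = 0.0129). Against 3 reads over the Cre-positive group, its mean was at least 29.1-fold lower. Tex21 (ENSMUSG00000021056, chr12:76198686-76246746) had 1.0, 2.0 and 0 in Cre-positive and 17.6, 7.9, 28.8 and 48.6 in Cre-negative libraries (-3.61 ± 0.90, adjusted p = 0.0192). In both genes the Cre-negative libraries themselves spread widely, and the Tex21 call was lost without Cre-positive 80 (adjusted p = 0.0559) or Cre-negative 77 (0.0636).

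Tex261 (ENSMUSG00000014748, chr6:83768885-83775813), related to a yeast factor of protein export from the endoplasmic reticulum, ran the other way. It had 485.9, 454.6 and 744.3 normalized counts in Cre-positive mTECs, against 315.9, 220.6, 311.7 and 261.6 in Cre-negative mTECs, and rose by 0.99 ± 0.24 on the log2 scale (SE, adjusted p = 0.0181). The groups did not overlap, yet the call was lost without Cre-positive 80 (0.77, adjusted p = 0.0746) and with a term for Y-linked level (adjusted p = 0.0731). Tex30 had the highest mean of all members and did not differ beyond its spread, with 1228.8, 942.3 and 772.3 normalized counts in Cre-positive and 1522.7, 815.6, 841.4 and 808.5 in Cre-negative libraries (0.01 ± 0.25, adjusted p = 0.990). Tex10, of a complex in ribosome assembly, had 449.3, 514.7 and 493.1 in Cre-positive and 345.3, 283.7, 436.0 and 386.7 in Cre-negative libraries (0.43 ± 0.22, adjusted p = 0.209), without overlap and without a call.

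**Figure D5:**
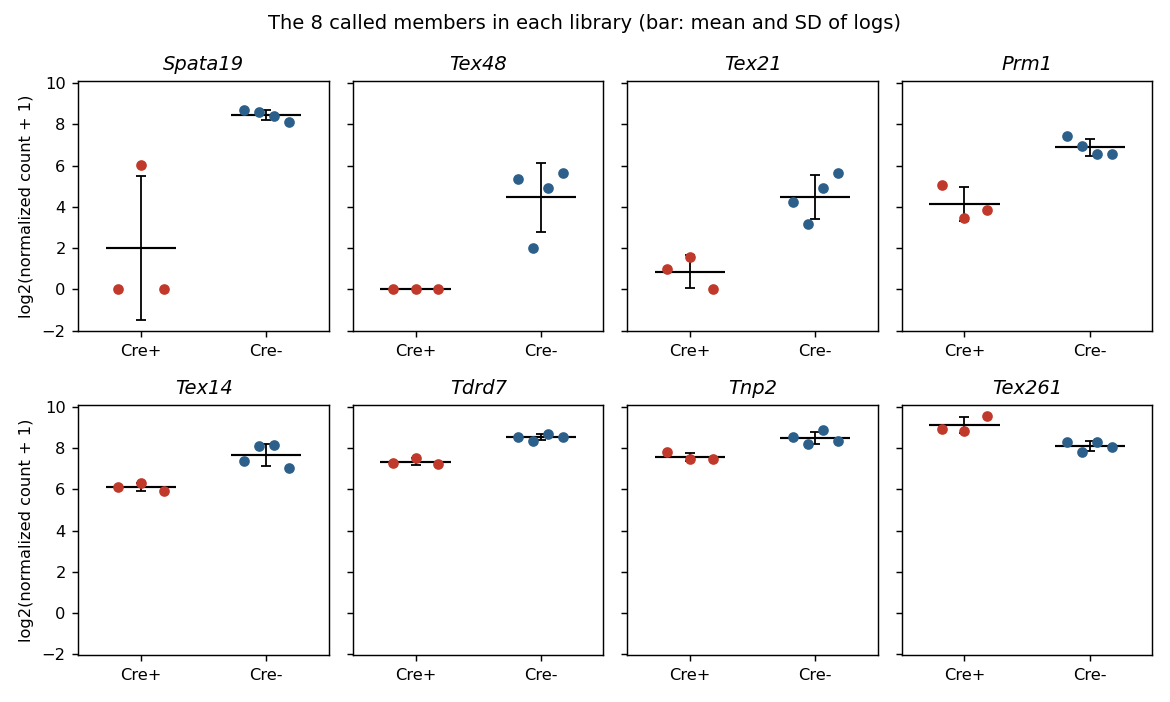
Log2(normalized count + 1) in each library (vertical axis) for the 8 called members, one panel a gene, Cre-positive left of Cre-negative; bars give the mean and SD of the logs. In every panel the Cre-positive points lie on one side of the Cre-negative points, and Cre-positive 76 alone holds reads of Spata19 within its group.

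Tex11, an X-linked gene of meiotic recombination, lay just outside the threshold and is named after its values were seen. It had 73.1, 66.1 and 1.0 normalized counts in Cre-positive and 208.7, 161.5, 151.3 and 186.1 in Cre-negative libraries (-3.04 ± 0.96, adjusted p = 0.0532). The groups did not overlap, and Cre-positive 80 stood far below its group. DESeq2 called it (-1.92, adjusted p = 0.0361) and edgeR did not (-1.90, adjusted p = 0.124). In limma it was called without Cre-positive 80 at -1.32 (adjusted p = 0.0230), without Cre-positive 45 at -3.93 (0.0230), without Cre-positive 76 at -3.86 (0.0353) and under library total scaling (0.0391). In the authors' deposited table, 42 members carry an adjusted p, and 7 are past 0.05, all lower in Cre-positive mTECs. They are Prm1, Tdrd7, Tex11, Tex14, Tex21, Tex48 and Tnp2, where 14.3% of the 19558 genes with an adjusted p in the authors' deposited table are lower and 7.46% higher.

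Members differed in how evenly the Cre-negative libraries read them. The coefficient of variation over the 4 Cre-negative libraries had a median of 17.8% for the 15 broadly transcribed members (range 9.74% to 155%) and 65.8% for the other 39 tested (13.0% to 176%). Restricted to a mean of at least 100 normalized counts, the ranges were 9.74% to 35.2% for 11 broadly transcribed members and 14.6% to 35.1% for the other 4 (Spata19, Tnp2, Tex14 and Tex11). Above this minimum the spreads overlapped, though levels were still not matched. Means reached 990 normalized counts among the broadly transcribed members and 291 among the other 4.

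The 29 members that were not tested had means up to 4.61 and single values up to 24.8 normalized counts. No read was found for 2 of the 83 in any library (Spata46 and 1 of the Spata22 entries), and 2 had reads in Cre-negative libraries only, 1 of them untested and the other Tex48. Tex22 had reads in Cre-positive libraries only. A read in every library was found for 32 members.

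Among other germ-cell genes outside these names, 6 of 47 tested were called lower (12.8%) and 1 higher (2.13%), shares near the 9.11% and 4.66% of all genes. Their median log2 fold change was -0.85, where that of all genes was -0.10. These medians were not matched by level, and the same minimum for testing applied. Among 18 genes of germline and meiosis, 1 was lower and 1 higher (5.56% each). Sycp2, of the synaptonemal complex, averaged 66.6 ± 36.2 normalized counts in Cre-positive and 195 ± 57.9 in Cre-negative libraries (-1.67, adjusted p = 0.0235), and Msh4, a meiotic crossover factor, 221 ± 17.2 and 83.4 ± 47.9 (1.56, adjusted p = 0.0261). Both calls were lost without single libraries: Sycp2 without Cre-positive 76 (adjusted p = 0.0731), Cre-negative 46 (0.0741) or Cre-negative 75 (0.0619), and Msh4 without any 1 of 6 libraries, Cre-negative 75 being the exception (0.0550 to 0.0737).

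Among 11 tested piRNA genes, 2 were called lower (18.2%) and 0 higher, where 9.11% and 4.66% of all genes were. Such shares rest on few genes. Gtsf1, which assists PIWI proteins, averaged 50.6 ± 18.9 normalized counts in Cre-positive and 253.8 ± 121 in Cre-negative libraries (-2.26, adjusted p = 0.00329), and Asz1, a germ-granule protein, 12.7 ± 10.6 and 112 ± 104 (-3.04, adjusted p = 0.0169; 0.0510 without Cre-positive 80 and 0.0662 without Cre-negative 46, and 0.0532 with a term for Y-linked level). Among 18 tested spermatid genes, 3 were called lower (16.7%) and 0 higher, also few. Smcp, of the sperm mitochondrial capsule, had no read in Cre-positive libraries and 24.3, 45.3, 23.4 and 25.8 normalized counts in Cre-negative libraries (-4.89, adjusted p = 0.00196). Odf1, of the outer dense fibres of the tail, had 0, 0 and 1.0 in Cre-positive and 26, 8.9, 15.3 and 19.6 in Cre-negative libraries (-3.78, adjusted p = 0.0136). Crem, the spermatid transcription factor, did not pass the test, at 290.6 ± 87.2 in Cre-positive and 317 ± 134 in Cre-negative libraries (-0.07, adjusted p = 0.923).

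Aire and some cell-type markers also differed between the groups, and their part in the results was not tested. Of all genes tested, 9.11% were called lower and 4.66% higher, while 14.5% lay wholly lower and 10.8% wholly higher in Cre-positive libraries. The marker lists are short, so each count below rests on few genes. Aire, the regulator of peripheral-tissue genes, averaged 2967 ± 308 normalized counts in Cre-positive and 4417 ± 767 in Cre-negative libraries (-0.56, adjusted p = 0.0395; above 0.05 in 6 of the alternatives, at up to 0.134). Of 14 mTEC markers, 5 were lower and 2 higher, and their sums overlapped, at 145855 to 205664 in Cre-positive and 124305 to 206338 in Cre-negative libraries. H2-Aa and H2-Ab1 made up 80.2% of these sums. Of single mTEC markers, 5 lay wholly lower in Cre-positive libraries, such as Cd80 (317 ± 58.0 in Cre-positive and 1170.1 ± 266 in Cre-negative libraries) and Cldn4 (225 ± 37.0 and 674 ± 157). Another 3 lay wholly higher, such as Krt14 (4594 ± 1115 and 1640 ± 502) and Krt5 (3212 ± 152 and 2167 ± 433). Of 6 cortical epithelial markers, 2 were lower, with sums of 6612 to 11215 in Cre-positive and 13303 to 16368 in Cre-negative libraries, of which Ccl25 made up 73.0% (1615 to 2872 and 2722 to 4836 without it). Of 10 ciliated-cell markers, 3 were lower and 1 higher (633 to 786 and 775.5 to 1317). Of 9 tested myeloid markers, 2 were lower and 1 higher (7460 to 11400 and 5255 to 7077). Lyz2 made up 90.3% of the myeloid sums, which ran the other way without it (253 to 585 in Cre-positive and 763 to 947 in Cre-negative libraries), and 8 of the 9 had a fold change below 0. Of 6 B-cell markers 1 was lower (657 to 885 and 630.1 to 971), of 7 fibroblast and endothelial markers 2 were lower (396.5 to 661.0 and 649.5 to 941.6) and of 12 thymocyte markers 0 were called (665.4 to 2493.2 and 808.8 to 1536.9; 0 also had an unadjusted p under 0.05 in limma). No marker of these lists was at 0 in all libraries of a group. Pou2f3 had 17.8, 0 and 4.2 normalized counts in Cre-positive and 17.6, 19.7, 1.8 and 27.9 in Cre-negative libraries. Without Cre-negative 48, the library with Y-linked reads, 7 members were called lower and 1 higher, where 6.62% and 3.34% of all genes were.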

How the data were processed

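The authors deposited 1 table of 55536 genes for 7 libraries. STAR 2.7.9a, DESeq2 and the build GRCm39 are named in, and credited to, the submitters' processing notes. Gene coordinates in the deposited table equal GENCODE M21 on GRCm38 for 49995 of 52489 genes found in both (95.2%), and for 76 of the 83 members, so positions are given on GRCm38. Neither the counting tool nor its use of strand is given in the sources used here. For each library, per the file headers, the authors deposited normalized counts (a signal: gene counts over a size factor), rounded to 1 decimal, and log2 values that were not used. The authors' log2 fold change, p-value and adjusted p-value in the deposited table run Cre-negative over Cre-positive, the opposite of the direction used here. 

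Whole reads came out for 100% of the values in each library, within a rounding tolerance of 0.0501 normalized counts. The 22878 genes whose normalized counts averaged 5 or more were tested with limma 3.58.1 (trend option) for genotype alone, on log2(normalized count + 1), with Benjamini-Hochberg adjustment over all 22878. Fold changes are Cre-positive over Cre-negative on that scale, which shrinks changes of low genes, while single libraries near 0 weigh heavily. A gene is called at an adjusted p under 0.05, and adjusted p-values are limma's where no tool is given. Alternatives were a pseudocount of 0.5, no filter, a minimum mean of 20, library total scaling, edgeR 4.0.16 (quasi-likelihood, TMM) and DESeq2 1.42.0 on recovered reads, a term for the range of the sample numbers, a term for Y-linked level, and leaving out each library. R 4.3.3, Python 3.11.15, numpy 2.4.6, pandas 2.3.3 and matplotlib 3.10.9 were used, and the steps were tested on simulated data. Limits from counts of 0 use 3 reads and cover counting error only.

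The members and gene lists were chosen with earlier results of these data known. Named genes are all tested Prm, Tnp, Tssk and Tdrd genes, up to 10 called members with the largest change each way (8 in all), the 5 members with the highest mean, Ikzf1, Aire and Pou2f3, and the 2 called genes with the largest change in each other germ list. Tex11, Crem, Prm2, Prm3, the genes beside the protamine cluster and the single cell-type markers were among those named outside this rule, after values were seen.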

Additional observations from a re-analysis of the deposited data

Results flagged for a closer look

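In 4 of the 29 genes checked this way, 1 of the 4 Cre-negative libraries stood far above the others, measured by its gap to the next library over the group's whole range. Chance would give about 1 such gene in 20 if values were normally distributed and genes independent. Normalized counts need not be so, and some genes were named for their calls. The 4 are therefore not read against that rate. Tex30 had 1522.7 normalized counts in Cre-negative 46, where the next was 841.4. Spata6 had 820.5 in Cre-negative 48, where the next was 563.5. Among the other germ-cell genes, Asz1 had 268.2 in Cre-negative 46, where the next was 74.9, and Smcp had 45.3 in Cre-negative 48, where the next was 25.8. Tex30 and Spata6 were not called in the comparison, and Smcp stayed at 0 in all Cre-positive libraries.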

How the results depend on the processing

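No paired analysis was possible because the groups share no replicate numbers in the labels. The count of members lower, 7, ranged from 5 (minimum mean of 20) to 8 over the alternatives and from 6 to 8 when each library was left out, where 3.98% to 11.5% of all genes were called lower. The 1 member higher became 0 with a term for Y-linked level and 0 without the broadly transcribed members, and ranged from 0 to 1 when libraries were left out. The median log2 fold change of the members, -0.87, was -0.51 over 81 genes without a filter, -0.30 over 28 genes at a minimum mean of 20 and -1.50 without the broadly transcribed members, where other genes enter by construction, and ranged from -1.09 to -0.51 when libraries were left out. Other germ genes lower, 6, came to 10 with DESeq2, 9 with library total scaling, 9 with the number range term and 4 at a minimum mean of 20, and ranged from 5 to 8 when libraries were left out, and the 1 higher became 0 with the Y-linked term and ranged from 0 to 1 when libraries were left out; the cause was not tested. The difference in members read per library, Cre-positive minus Cre-negative, was -12.3 at 10 reads, and, in settings chosen after seeing the data, -15.4 at 5 reads and -11.6 with libraries thinned to the lowest total. Among single genes, 356 results kept their direction and side of the threshold, 29 lost the call and 1 gained it. Another 24 changed sign, all in genes that were called neither before nor after. Tdrd3 (-0.01) came to 0.033 with the number range term and 0.073 with the Y-linked term, Tnp1 (-0.76) to 0.46 with the Y-linked term, and Tex30 (0.01) to -0.20 with library total scaling, -0.0072 with edgeR, -0.023 with DESeq2 and -0.10 with the Y-linked term. When libraries were left out, Tdrd3 ranged from -0.20 to 0.13, Tdrd6 from -0.60 to 0.40, Tnp1 from -1.53 to 0.16, Tssk3 from -0.61 to 0.44, Tssk4 from -0.22 to 1.47 and Tex30 from -0.17 to 0.23. Of the 54 tested members, 26 had means of 5 to 20 normalized counts, where SEs near 1 on the log2 scale limit what can be called.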

Other observations

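Several members drew most of their counts from a single library. Among members with at least 20 normalized counts summed over the 7 libraries, 9 of 43 outside the broadly transcribed list and 1 of the 15 broadly transcribed ones had over 50% of the sum in 1 library. All 10 of those libraries were Cre-negative: 46 for 3 genes, 48 for 1, 75 for 3 and 77 for 3. The sums of these 10 genes were low, at 26.8 to 138.9 normalized counts. The share over all genes, or over genes of like level, was not counted. These counts therefore cannot be read as particular to the members or to Cre-negative libraries. Tex12, a synaptonemal complex protein, had 92.5% of its sum in Cre-negative 77, and Tex36 had 82.9% in Cre-negative 46. The near copies Tex19.1 and Tex19.2, side by side on chromosome 11, had 53.8% and 67.0% in Cre-negative 77; the division of reads between near copies is uncertain. Tnp1 had 63.9% in Cre-negative 48. These genes were picked out after their values were seen. Cre-negative libraries are 4 of the 7.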
